A study of Macaca mulatta with 12 samples.

Results

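Engineered heart tissue (EHT) was compared with monolayer culture after hypoxia, over all genes and in 6 of the study's 12 libraries, chosen by their labels alone. EHT is a small tissue built from cultured heart cells in 3 dimensions, whereas a monolayer is a flat sheet of cultured cells. Both groups were labelled as cardiomyocytes derived from induced pluripotent stem cells of a non-human primate, with Macaca mulatta, the rhesus macaque, as organism. Both were kept in RPMI with B27 supplement and insulin. Both had hypoxia as 24 hours in an anaerobic pouch, and the labels then give 24 hours after the medium was renewed. The EHT hypoxia group and the monolayer hypoxia group held 3 libraries each. The other 6 libraries, 3 of EHT and 3 of monolayer, were labelled normoxia, with no medium renewal recorded. The labels name no cell line, do not say whether replicates were separate differentiations or tissues, do not say what other cells or gel an EHT held, and do not say when RNA was taken. P-values therefore measure only the spread between these samples, which may be technical.

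Cardiomyocytes contract through sarcomeres, in which thick myosin filaments pull on thin actin filaments anchored at the Z-disc. Calcium released by the ryanodine receptor starts each beat, and the sodium-calcium exchanger and the calcium pump of the sarcoplasmic reticulum end it. When oxygen falls, prolyl hydroxylases stop marking hypoxia-inducible factors for degradation, and these factors raise genes of glycolysis, blood vessel growth and low-oxygen adaptation. In a tissue built in 3 dimensions oxygen also has to diffuse inward, and fibroblasts and matrix carry part of the load.

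The deposited values were log2 values after a variance-stabilising transformation. Here each library was centred on its median over the 12084 genes tested, and 7.46, the mean of the medians, was added back, so every level below is a centred log2 level. A level is comparable between libraries of 1 gene and not between genes. A gene with 0 reads lay at 3.42, 3.12 and 2.70 in the monolayer libraries and at 2.65 in EHT replicate 3. In EHT replicates 1 and 2 it lay higher, since their deposited medians were 7.15 and 7.06 against 7.81 in replicate 3. Near 0 reads, part of a distance below them in EHT replicate 3 therefore came from the centring. Differences are EHT minus monolayer in log2 units with the standard error (SE) of limma's model, for 3 against 3 libraries unless a library is said to be left out. A gene was called at a Benjamini-Hochberg adjusted p under 0.05 in limma over the 12084 genes. Values for replicates 1, 2 and 3 are given in that order, and the replicates of a group have no order of their own.

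The 3 monolayer hypoxia libraries held 7068098 to 10226116 reads and the 3 EHT hypoxia libraries 4418409 to 6639980. The monolayer libraries resembled each other closely, with correlations across genes of 0.986 to 0.991. EHT replicates 1 and 2 correlated at 0.976, and EHT replicate 3 correlated with them at 0.923 and 0.920. EHT replicate 3 was also the shallowest of the 6 libraries, with 11784 genes holding a read. It lay at least 1 log2 unit below both other EHT libraries at 1479 genes and above both at 318. The same distance was met below by replicate 1 at 64 genes and by replicate 2 at 37. Each result below was therefore also taken without EHT replicate 3.

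The cell type label was checked against 9 cardiomyocyte markers. Their summed share of reads was 0.381, 0.360 and 0.414% in the monolayer libraries and 0.0430, 0.0502 and 0.00238% in the EHT libraries. In EHT replicate 3 there were 0 reads of 3 of the 9 markers, MYH6, TNNI3 and MYBPC3, and the library labelled as cardiomyocyte tissue thus held almost no transcripts of the labelled cell type. The 9 fibroblast markers took 4.85, 4.38 and 4.33% of reads in the monolayers and 6.77, 6.26 and 5.06% in EHT. COL1A1 and COL3A1 held most of these reads in every library, so the sum mainly follows those collagens. The 8 smooth muscle or pericyte markers took 0.624, 0.645 and 0.568% in the monolayers and 0.180, 0.195 and 0.168% in EHT. In RNA from whole cultures, fewer cells of a type and less RNA per cell cannot be told apart.

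After hypoxia, 2227 genes were higher in EHT, 18.4% of those tested, and 2375 were lower, 19.7%. These shares, and those given next for other fits, are the background for the list counts below, also where they are not repeated. Without EHT replicate 3 the counts were 2251 higher (18.6%) and 2279 lower (18.9%), and 3866 of the 4602 calls, 84%, were made in both fits in the same direction. On the deposited values without centring, 607 genes were higher (5.02%) and 946 lower (7.83%). On that scale limma gave each gene a spread set by its mean level alone, with an SE of 0.461 to 0.599. No difference smaller than 1.26 log2 units was called there, and none larger than 1.34 was left uncalled. Calls on the deposited values therefore follow the size of a difference and do not check how well a gene's replicates agree. Among the 145 genes named in the text that were called on centred values, the 36 that were not called on the deposited values each differed by 1.31 or less in size, and the other 109 by 1.32 or more. Of the genes called on centred values, 31.2% were also called on the deposited values, 570 of them higher and 868 lower. Centring moved the median difference of all genes little, from -0.06 to -0.02. At 24.4% of genes the 3 EHT levels lay above all 3 monolayer levels, and at 26.4% below them.

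**Figure D1:**
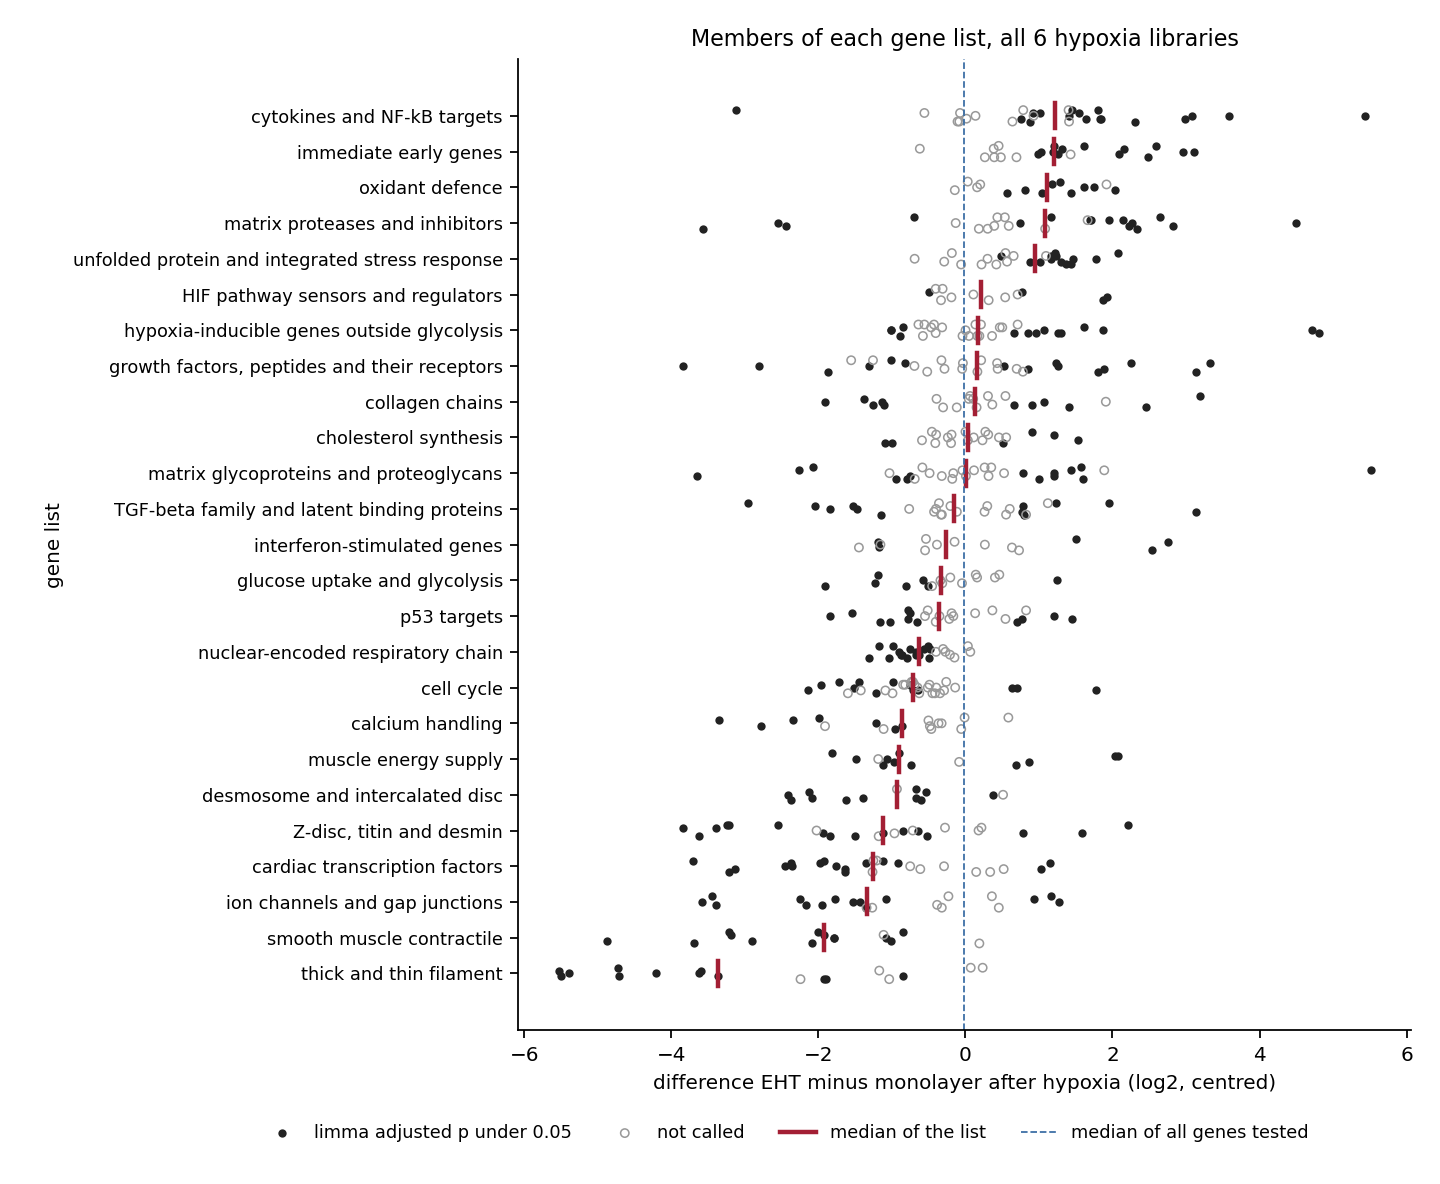
Each dot is 1 tested gene of a named list, placed by its difference between EHT and monolayer after hypoxia in centred log2 units (horizontal axis), filled where limma's adjusted p was under 0.05 and open where it was not. Red bars mark list medians and the dashed line the median of all genes; the thick and thin filament list lay lowest with a median of -3.36 and the cytokine list highest with 1.21.

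After hypoxia EHT held lower levels of sarcomere genes than monolayer did. Of 21 thick and thin filament genes listed, 17 were tested, and 0 were higher and 12 lower, against 18.4% and 19.7% of all genes. The median difference was -3.36, and -2.21 without EHT replicate 3, where 12 were again lower. On the deposited values 12 were lower. At 13 of the 17 genes every EHT library lay below every monolayer library. The list took 0.893, 0.866 and 0.929% of reads in the monolayers and 0.156, 0.182 and 0.0824% in EHT.

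Cardiac troponin T (TNNT2), which holds the troponin complex on the thin filament, stood at 13.34, 13.31 and 13.29 in the monolayers and 9.76, 10.30 and 5.69 in EHT. The groups did not overlap, and EHT replicate 3 was far below the other two. The difference was -4.73 ± 1.14 (adjusted p = 0.00627), and -3.28 without that library. Alpha cardiac actin (ACTC1), the actin of the thin filament, stood at 13.35, 13.54 and 13.62 in the monolayers and 9.97, 10.28 and 3.77 in EHT, a difference of -5.50 ± 1.50 (adjusted p = 0.0123). Without EHT replicate 3 the difference in ACTC1 was -3.38 (adjusted p = 0.0202). The size of the ACTC1 difference therefore depended on 1 library and its direction did not.

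The alpha myosin heavy chain gene MYH6, the motor of the atrial and early cardiac thick filament, stood at 13.06, 12.91 and 13.31 in the monolayers and 10.04, 10.01 and 2.65 in EHT, with 739, 811 and 0 reads. Every EHT library was below every monolayer library. The difference was -5.53 ± 1.63 (adjusted p = 0.0178), -3.07 without EHT replicate 3 and -5.42 without monolayer replicate 3, where it was not called (adjusted p = 0.0542). MYL7, the atrial regulatory light chain, followed the same pattern, with 13.50, 13.61 and 13.57 in the monolayers and 10.06, 10.66 and 3.77 in EHT. Its difference was -5.39 ± 1.53 (adjusted p = 0.0148), and -3.20 without EHT replicate 3. Slow skeletal troponin I (TNNI1), the troponin I of immature heart, was at 11.21, 11.33 and 11.33 in the monolayers and 8.18, 8.98 and 5.85 in EHT. That gave -3.62 ± 0.64 (adjusted p = 0.000953).

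Not every filament gene depended on EHT replicate 3. TPM1, a tropomyosin shared by cardiac and smooth muscle, stood at 14.72, 14.80 and 14.79 in the monolayers and 12.81, 12.96 and 12.76 in EHT. The 3 EHT libraries lay close together, and the difference was -1.93 ± 0.34 (adjusted p = 0.000895). MYBPC3, the myosin binding protein of the thick filament, and MYOM1, which links myosin at the M-band, were lower, with differences of -4.21 and -3.59. Without EHT replicate 3 these differences shrank to -2.96 and -2.83, still called, so their size did depend on that library.

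**Figure D2:**
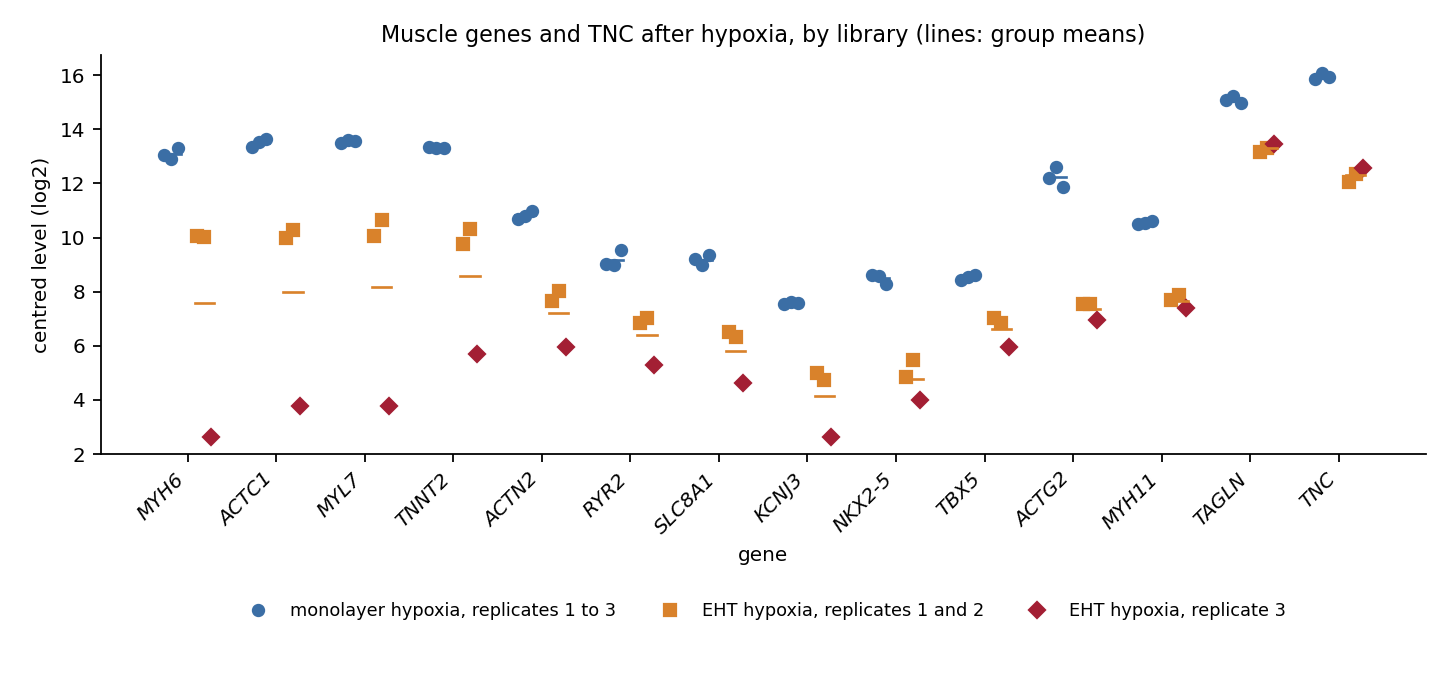
Centred log2 levels (vertical axis) of 14 contractile, calcium, channel, transcription factor, smooth muscle and matrix genes in the 6 hypoxia libraries, with circles for monolayer, squares for EHT replicates 1 and 2, a diamond for EHT replicate 3 and lines for group means. All EHT points lie below the monolayer points, and the diamond falls away from the squares at MYH6, where EHT replicate 3 had 0 reads, but not at MYH11, TAGLN or TNC.

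Among the Z-disc and titin-associated genes, 23 of 26 listed were tested, with 3 higher and 13 lower, against 18.4% and 19.7% of all genes. Without EHT replicate 3 the counts were 2 and 10, on the deposited values 2 and 10, and without monolayer replicate 2 the lower genes numbered 8. Alpha-actinin 2 (ACTN2), which cross-links actin at the Z-disc, stood at 10.69, 10.81 and 11.0 in the monolayers and 7.64, 8.03 and 5.95 in EHT. Its difference was -3.62 ± 0.73 (adjusted p = 0.00208). SMPX, a small muscle protein at the costamere, differed by -3.39, the actin cross-linker FLNC by -0.84 and the PDZ-LIM protein PDLIM3 by -1.51, and all were called. TCAP, the titin cap protein telethonin, went the other way, from 7.17, 6.81 and 6.35 in the monolayers to 8.39, 8.78 and 7.91 in EHT, higher by 1.58 ± 0.29 (adjusted p = 0.00124).

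Calcium handling genes were lower or not called. Of 17 tested among 20 listed, 0 were higher and 7 lower, with a median of -0.86. Without EHT replicate 3, 1 was higher and 7 were lower, and on the deposited values 0 were higher and 5 lower. The sodium-calcium exchanger SLC8A1 stood at 9.19, 8.99 and 9.35 in the monolayers and 6.52, 6.31 and 4.64 in EHT, a difference of -3.35 ± 0.50 (adjusted p = 0.000303). The ryanodine receptor RYR2, the release channel, stood at 9.03, 8.97 and 9.53 in the monolayers and 6.85, 7.03 and 5.30 in EHT, with a difference of -2.78 ± 0.46 (adjusted p = 0.000604). Neither gene's groups overlapped. ATP2A2, the calcium pump SERCA2, was lower by a smaller amount, -0.86 ± 0.22 (adjusted p = 0.0094). PLN, the pump's inhibitor phospholamban, was not called, at -1.11 ± 0.85 (adjusted p = 0.328), although its EHT levels of 7.46, 7.62 and 6.55 all lay below the monolayer levels of 8.09, 8.39 and 8.50. Without monolayer normoxia replicate 3, which enters the shared estimate of spread, PLN was called (adjusted p = 0.0128). JPH2, which holds the sarcoplasmic reticulum beside the surface membrane, and CACNA1C, the pore of the L-type calcium channel, differed by -1.99 and -1.22, and both were called.

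For ion channels and gap junctions, 3 of 21 tested genes were higher and 11 lower, against 18.4% and 19.7% of all genes. The counts were 4 and 9 without EHT replicate 3, and 0 and 11 on the deposited values. On centred values 7 were lower without monolayer replicate 1, or without monolayer replicate 3. KCNJ3, a subunit of the acetylcholine-activated atrial potassium channel, stood at 7.54, 7.62 and 7.59 in the monolayers and 5.01, 4.75 and 2.65 in EHT, with 0 reads in EHT replicate 3. Its difference was -3.45 ± 0.50 (adjusted p = 0.000273), and -2.70 without that library. KCNH2, the channel of the rapid repolarising current, and CACNA1G, a T-type calcium channel, differed by -3.39 and -2.17. The background potassium channel KCNK3 differed by -3.58, and each of these 3 was called. The gap junction gene GJA1, connexin 43, was instead higher in EHT, at 13.25, 13.17 and 13.36 against 12.23, 12.49 and 12.28, by 0.93 ± 0.18 (adjusted p = 0.00182). KCNIP2, an auxiliary subunit of a transient outward potassium channel, was higher by 1.27.

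Cardiac transcription factors were mostly lower. Of 25 tested, all that were listed, 2 were higher and 14 lower, 3 and 13 without EHT replicate 3, and 0 and 13 on the deposited values. NKX2-5, a homeobox factor that marks the cardiac lineage, stood at 8.62, 8.58 and 8.28 in the monolayers and 4.86, 5.48 and 4.01 in EHT. That difference of -3.71 ± 0.59 (adjusted p = 0.000488) remained -3.32 without EHT replicate 3. TBX5, a T-box factor of the atria and left ventricle, stood at 8.43, 8.55 and 8.60 in the monolayers and 7.02, 6.84 and 5.95 in EHT, a difference of -1.92 ± 0.25 (adjusted p = 0.000139). TBX20 and the Notch target HEY2 differed by -2.36 and -3.13. The called genes in the other direction were NR2F2, an atrial nuclear receptor also made by stromal cells, at 1.02, and the Iroquois factor IRX3, at 1.15.

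Genes of cell-to-cell contacts followed. Of 13 desmosome and intercalated disc genes tested, 1 was higher and 10 were lower, 1 and 8 without EHT replicate 3. On the deposited values 0 were higher and 6 lower. On centred values the higher gene was the kinase ILK, at 0.37, not called without monolayer replicate 1 or 3 (adjusted p = 0.0723 and 0.0502). N-cadherin (CDH2), the cadherin between cardiomyocytes, stood at 11.87, 12.06 and 12.11 in the monolayers and 9.69, 9.84 and 9.41 in EHT. Its groups lay far apart relative to their spread, with a difference of -2.37 ± 0.30 (adjusted p = 0.000103). Desmoplakin (DSP) and desmoglein 2 (DSG2), both of the desmosome, differed by -2.09 and -1.62, and alpha-catenin (CTNNA1) by -0.67.

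Smooth muscle contractile genes were lower or not called in EHT. Of 15 tested among 17 listed, 0 were higher and 13 lower, with a median of -1.93, and -1.72 without EHT replicate 3, where 12 were lower. On the deposited values 10 were lower. ACTG2, the gamma actin of enteric smooth muscle, stood at 12.21, 12.60 and 11.88 in the monolayers and 7.55, 7.56 and 6.96 in EHT, a difference of -4.88 ± 0.37 (adjusted p = 3.19e-06). MYH11, the smooth muscle myosin heavy chain, stood at 10.50, 10.55 and 10.62 in the monolayers and 7.69, 7.86 and 7.39 in EHT, a difference of -2.91 ± 0.33 (adjusted p = 5.2e-05). The 3 EHT libraries agreed closely at both genes. TAGLN, the actin-binding protein transgelin, stood at 15.09, 15.23 and 14.96 in the monolayers and 13.15, 13.29 and 13.46 in EHT, a difference of -1.79 ± 0.25 (adjusted p = 0.000195). Calponin (CNN1), the light chain MYL9 and smoothelin (SMTN) differed by -3.19, -1.78 and -2.0. Alpha smooth muscle actin (ACTA2), also made by activated fibroblasts, differed by -3.69, and -2.83 without EHT replicate 3.

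Genes of mitochondrial energy supply were split. Of 13 muscle energy genes tested among 22 listed, 4 were higher and 7 lower, against 18.4% and 19.7% of all genes. On the deposited values 2 were higher and 2 lower. CPT1B, which carries long fatty acids into muscle mitochondria, stood at 5.38, 5.10 and 5.35 in the monolayers and 6.87, 7.44 and 7.62 in EHT, higher by 2.03 ± 0.28 (adjusted p = 0.000196). The fatty acid dehydrogenases ACADVL and ACADM were higher by 0.87 and 0.69. SLC25A4, the muscle exchanger of ADP and ATP, stood at 10.15, 10.20 and 10.22 in the monolayers and 8.68, 8.70 and 8.72 in EHT, a difference of -1.49 ± 0.15 (adjusted p = 2.5e-05). HADHA, of the mitochondrial trifunctional protein, was lower, with a difference of -0.74, so enzymes of fatty acid oxidation were called in both directions.

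The nuclear-encoded respiratory chain moved in 1 direction. Of 23 genes tested among 40 listed, 0 were higher and 16 lower, also 16 without EHT replicate 3, with a median of -0.63. These differences were small, and 1 was called on the deposited values. COX5A, a subunit of cytochrome c oxidase, stood at 9.07, 9.22 and 9.05 in the monolayers and 8.05, 7.90 and 7.87 in EHT, a difference of -1.17 ± 0.14 (adjusted p = 8.44e-05). NDUFA4, another cytochrome c oxidase subunit, was lower, with a difference of -1.32 ± 0.17 (adjusted p = 0.000141). ATP5A1, of ATP synthase, and NDUFA8, of complex I, differed by -1.03 and -0.88.

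A close relative of NDUFA4 went the other way. NDUFA4L2, a hypoxia-inducible homologue of NDUFA4, stood at 6.17, 5.39 and 5.49 in the monolayers and 10.94, 11.13 and 9.13 in EHT. The difference was 4.72 ± 0.61 (adjusted p = 0.000118), and 5.35 without EHT replicate 3. Hypoxia-inducible genes outside glycolysis were more often not called than called. Of 32 tested among 36 listed, 10 were higher and 4 lower, against 18.4% and 19.7% of all genes. The median was 0.18, and on the deposited values 4 were higher and 0 lower. On centred values the lower genes numbered 2 without monolayer replicate 1 or 2. Their summed reads were 2.23, 2.37 and 2.17% in the monolayers and 3.35, 3.56 and 3.01% in EHT.

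C10orf10, a gene of starvation and progesterone response that low oxygen also raises, stood at 4.58, 4.60 and 4.05 in the monolayers and 9.19, 9.48 and 8.99 in EHT. It had 1 of the steadiest large differences, 4.81 ± 0.31 (adjusted p = 9.84e-07). VEGFA, the main growth factor for blood vessels, stood at 14.43, 14.55 and 14.36 in the monolayers and 15.26, 15.51 and 15.10 in EHT, higher by 0.84 ± 0.23 (adjusted p = 0.0109). CA9, the carbonic anhydrase of hypoxic tumours, stood at 9.55, 9.61 and 9.46 in the monolayers and 11.50, 11.57 and 10.39 in EHT, higher by 1.61 ± 0.47 (adjusted p = 0.0167). CA9 was not called without EHT replicate 1 (1.44, adjusted p = 0.0541), without EHT replicate 2 (1.41, adjusted p = 0.0589) or without monolayer replicate 3 (1.57, adjusted p = 0.0528). ADM, the vasodilator adrenomedullin, did not differ beyond its error, at 0.16 ± 0.32 (adjusted p = 0.717). KDM3A, a histone demethylase, and P4HA1, the collagen prolyl hydroxylase, were lower, with differences of -1.01 and -0.84.

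Of 12 sensors and regulators of the HIF pathway tested, 3 were higher and 1 lower, against 18.4% and 19.7% of all genes, and 2 and 0 on the deposited values. The lower genes numbered 0 without EHT replicate 2 or monolayer replicate 3 and 2 without monolayer normoxia replicate 1 or 3. EPAS1, which encodes HIF-2 alpha, stood at 7.36, 7.48 and 7.85 in the monolayers and 9.33, 9.95 and 9.19 in EHT, higher by 1.93 ± 0.35 (adjusted p = 0.00119). EGLN3, a prolyl hydroxylase that is itself raised by HIF, stood at 10.16, 10.25 and 10.19 in the monolayers and 12.11, 12.35 and 11.76 in EHT, higher by 1.87 ± 0.45 (adjusted p = 0.00614). HIF1AN, the asparaginyl hydroxylase of HIF, was higher by 0.77. HIF1A itself, whose control is mainly on the protein, was not called, at 0.11 ± 0.20 (adjusted p = 0.707).

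The tested genes of glucose uptake and glycolysis were, with 1 exception, lower or not called. SLC2A3, TPI1, GAPDH, PGAM1, ENO1, PKM and LDHA were listed but not analysed here, so most enzymes of the later steps are missing. Of 16 tested among 23 listed, 1 was higher and 6 were lower, against 18.4% and 19.7% of all genes. The lower genes numbered 3 without EHT replicate 1 or 3 or monolayer replicate 1 or 2. On the deposited values 0 were higher and 1 was lower. On centred values the higher gene was the neuronal enolase ENO2, at 1.24. It was not called without EHT replicate 1 or 2 or any 1 monolayer replicate (adjusted p of 0.071 to 0.096). PFKM, the muscle phosphofructokinase, stood at 11.0, 11.0 and 10.99 in the monolayers and 9.42, 9.27 and 8.58 in EHT, a difference of -1.91 ± 0.20 (adjusted p = 2.71e-05). HK1, the general hexokinase, was lower, with a difference of -1.19 ± 0.14 (adjusted p = 6.97e-05). PDK1, the kinase that keeps pyruvate out of mitochondria, was lower, with a difference of -1.23. The glucose transporter SLC2A1 differed by -0.51 ± 0.18 (adjusted p = 0.0403), but was not called without EHT replicate 1 or 3, monolayer replicate 1 or 2, EHT normoxia replicate 1 or 2 or monolayer normoxia replicate 2, with adjusted p of 0.0517 to 0.158.

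**Figure D3:**
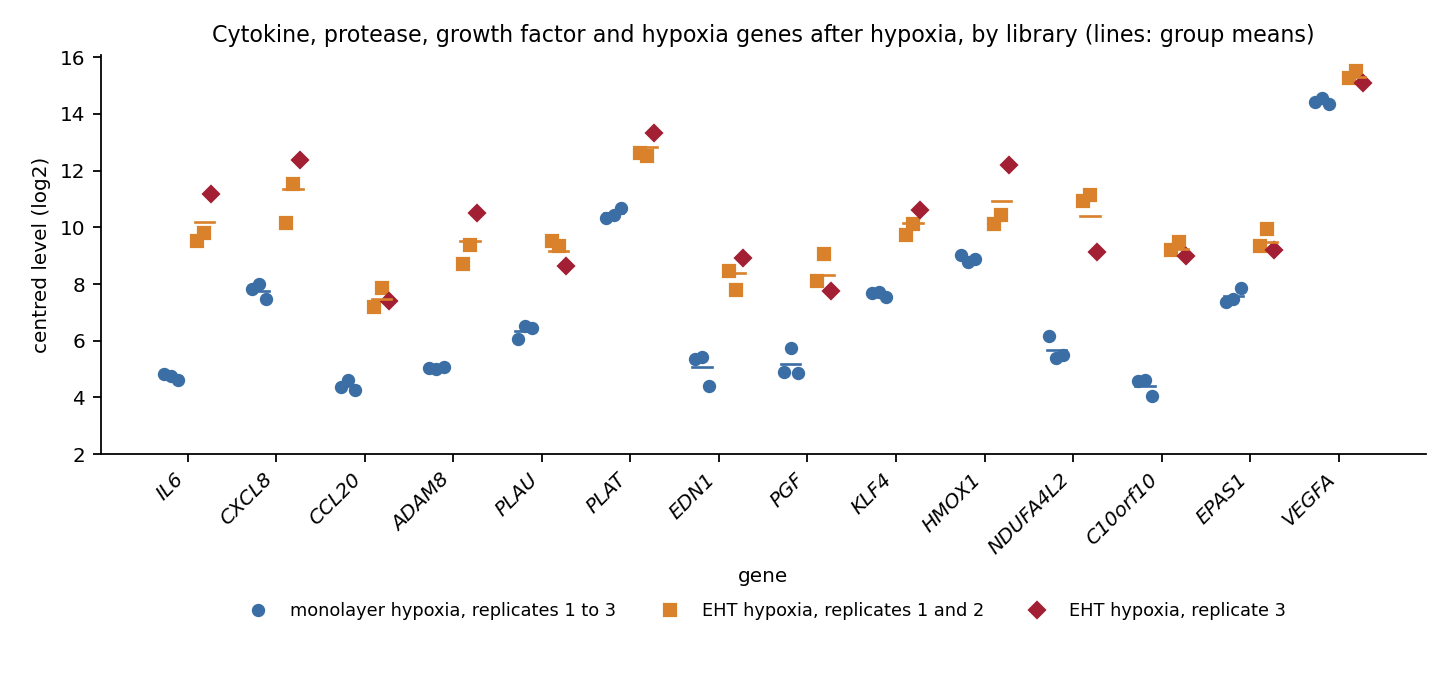
Centred log2 levels (vertical axis) of 14 cytokine, protease, growth factor, early response, oxidant defence and hypoxia genes in the 6 hypoxia libraries, with circles for monolayer, squares for EHT replicates 1 and 2, a diamond for EHT replicate 3 and lines for group means. All EHT points lie above the monolayer points, with IL6 and HMOX1 highest in EHT replicate 3 and NDUFA4L2 lowest there.

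Cytokine genes were more often higher than lower in EHT. Of 28 cytokines and targets of the inflammatory factor NF-kB tested among 36 listed, 16 were higher and 1 was lower, the same counts as without EHT replicate 3. On the deposited values 14 were higher and 1 lower, and the median was 1.21. Interleukin 6 (IL6), the fever and acute phase cytokine, stood at 4.82, 4.77 and 4.62 in the monolayers and 9.53, 9.81 and 11.19 in EHT. Its difference was 5.44 ± 0.76 (adjusted p = 0.000199), and 4.93 without EHT replicate 3. CXCL8, a chemokine that draws neutrophils, stood at 7.84, 7.99 and 7.48 in the monolayers and 10.17, 11.54 and 12.36 in EHT, higher by 3.59 ± 0.46 (adjusted p = 0.000111). CCL20, a chemokine for CCR6-bearing lymphocytes, stood at 4.38, 4.60 and 4.25 in the monolayers and 7.18, 7.88 and 7.39 in EHT, higher by 3.08 ± 0.38 (adjusted p = 9e-05). CSF1, the growth factor of macrophages, was higher by 1.64. The lower gene was CXCL12, a chemokine of stromal cells, at -3.12, and -1.85 without EHT replicate 3.

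The 8 markers of myeloid and lymphoid cells took 0.00344, 0.00306 and 0.00341% of reads in the monolayers and 0.00524, 0.0151 and 0.00127% in EHT. Of 6 tested, 0 were higher and 0 lower, with or without EHT replicate 3. Their median difference was 0.09, and 1.07 without that library, where the median of the cytokine list was 1.15. The part of such cells in the cytokine levels was not tested. In EHT replicate 3, where IL6 and CXCL8 were highest, 6 of the 8 markers had 0 reads. TYROBP, a signalling adaptor of myeloid cells, had 38, 200 and 0 reads in EHT. SRGN, the proteoglycan serglycin of blood and endothelial cells, was among the largest differences of all genes. It stood at 5.63, 6.06 and 5.71 in the monolayers and 12.35, 12.62 and 8.97 in EHT, higher by 5.51 ± 1.05 (adjusted p = 0.0015). SRGN was lower in EHT replicate 3 than in the other two, as the summed share of the myeloid and lymphoid markers was.

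Immediate early genes, which respond within minutes to growth factors, stretch or stress, were higher or not called. Of 21 tested, 13 were higher and 0 lower, 12 and 0 without EHT replicate 3, and 8 were higher without EHT replicate 2. On the deposited values 8 were higher and 0 lower. KLF4, a zinc finger factor of stress and cell identity, stood at 7.68, 7.73 and 7.55 in the monolayers and 9.72, 10.11 and 10.60 in EHT, higher by 2.49 ± 0.28 (adjusted p = 4.43e-05). FOSL1, a partner in the AP-1 factor, stood at 6.22, 6.14 and 5.68 in the monolayers and 8.21, 8.91 and 9.78 in EHT, higher by 2.95 ± 0.45 (adjusted p = 0.000377). KLF2 and KLF6 were higher by 2.59 and 1.26. Of 14 interferon-stimulated genes tested, 3 were higher and 2 lower, against 18.4% and 19.7% of all genes. Without EHT replicate 3, 5 were higher, and on the deposited values 3 were higher and 1 lower. ISG20 and IFI35 were higher by 2.53 and 2.76, and MX1 was lower, with a difference of -1.17.

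Stress response genes were higher or not called, and their share of reads was highest in EHT replicate 3. Of 24 genes of the unfolded protein and integrated stress response tested, 13 were higher and 0 lower, with a median of 0.94. Without EHT replicate 3, 11 were higher and the median was 0.54, and without monolayer replicate 1, 7 were higher. On the deposited values 5 were higher and 0 lower. The list took 0.931, 0.975 and 0.949% of reads in the monolayers and 1.23, 1.75 and 3.03% in EHT. HERPUD1, which serves protein removal from the endoplasmic reticulum, stood at 11.17, 11.59 and 11.43 in the monolayers and 12.19, 12.65 and 13.45 in EHT, higher by 1.37 ± 0.29 (adjusted p = 0.0029). EDEM1, a lectin of the same removal route, the chaperone DNAJB9 and the stress sensor ERN1 were higher by 1.23, 1.31 and 1.21.

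Of 14 oxidant defence genes tested, 9 were higher and 0 lower, 7 and 0 without EHT replicate 3, and 5 were higher without monolayer replicate 3. On the deposited values 5 were higher and 0 lower. Heme oxygenase 1 (HMOX1), which breaks down heme, stood at 9.03, 8.77 and 8.89 in the monolayers and 10.13, 10.44 and 12.21 in EHT. It was higher by 2.03 ± 0.42 (adjusted p = 0.00236), and by 1.39 without EHT replicate 3. The metallothionein MT1X, the thioredoxin TXN and catalase (CAT) were higher by 1.76, 1.18 and 1.04.

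Matrix genes were called in both directions. Of 22 collagen chains tested, 6 were higher and 5 lower, shares close to those of all genes, with a median of 0.13. On the deposited values 4 were higher and 2 lower. COL4A1, a chain of basement membrane collagen, stood at 15.35, 15.41 and 15.21 in the monolayers and 13.20, 13.39 and 13.65 in EHT, a difference of -1.91 ± 0.35 (adjusted p = 0.00119). Its partner COL4A2 was lower, with a difference of -1.38. COL15A1, another basement membrane collagen, went the other way, from 9.42, 9.32 and 9.15 in the monolayers to 11.56, 11.67 and 12.04 in EHT, higher by 2.46 ± 0.15 (adjusted p = 9.79e-07). The microfibril collagens COL6A1 and COL6A2 were higher by 0.91 and 1.07. COL1A1, the main fibrillar chain, was not called, at 0.06 ± 0.32 (adjusted p = 0.898), with overlapping groups.

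Matrix glycoproteins and proteoglycans gave 8 higher and 6 lower of 29 tested, again near the shares of all genes. Without monolayer replicate 1 or 2, 5 were higher, and on the deposited values 5 were higher and 3 lower. The list took 14.2, 14.7 and 15.3% of reads in the monolayers and 7.97, 8.70 and 9.95% in EHT. Its median difference was 0.007, so the lower sum does not describe most members, and a sum is weighted toward genes with the most reads. Tenascin C (TNC), a matrix protein of wounds and embryos, stood at 15.87, 16.07 and 15.95 in the monolayers and 12.04, 12.33 and 12.57 in EHT, a difference of -3.65 ± 0.34 (adjusted p = 1.31e-05). Versican (VCAN), a large proteoglycan of loose matrix, stood at 15.17, 15.34 and 15.29 in the monolayers and 13.31, 12.97 and 12.74 in EHT, a difference of -2.26 ± 0.21 (adjusted p = 1.21e-05). FBLN5, which helps build elastic fibres, was lower, with a difference of -2.07. Decorin (DCN), a small proteoglycan on collagen fibrils, stood at 13.13, 13.37 and 13.06 in the monolayers and 15.22, 14.84 and 14.23 in EHT, higher by 1.57 ± 0.34 (adjusted p = 0.00314). The basement membrane protein NID2 was higher by 1.59. Fibronectin (FN1) stood at 19.70, 19.87 and 19.90 in the monolayers and 18.41, 18.78 and 19.18 in EHT, with no overlap, but was not called, at -1.03 ± 0.48 (adjusted p = 0.111). Periostin (POSTN), a matrix protein of activated fibroblasts, was not called either, at -0.32 ± 0.35 (adjusted p = 0.489).

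Matrix proteases and their inhibitors were more often higher. Of 25 tested among 27 listed, 12 were higher and 4 lower, 11 and 3 without EHT replicate 3, and 11 and 3 on the deposited values. Their summed reads were 0.694, 0.695 and 0.669% in the monolayers and 1.91, 1.96 and 1.93% in EHT. ADAM8, a membrane protease known from leukocytes, stood at 5.02, 5.01 and 5.06 in the monolayers and 8.71, 9.37 and 10.51 in EHT, higher by 4.50 ± 0.47 (adjusted p = 2.65e-05). Urokinase (PLAU), a plasminogen activator, stood at 6.07, 6.53 and 6.43 in the monolayers and 9.52, 9.35 and 8.62 in EHT, higher by 2.82 ± 0.46 (adjusted p = 0.000562). The urokinase receptor PLAUR and the tissue plasminogen activator PLAT were higher by 2.26 and 2.33, so ligand, receptor and the second activator were all called. MMP15, a membrane metalloprotease, and ADAMTS9, a secreted protease of versican, were lower, with differences of -3.57 and -2.55.

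In the TGF-beta family, 6 of 26 genes were higher and 6 lower, both shares near those of all genes. On the deposited values 2 were higher and 5 lower. The type II receptor TGFBR2 stood at 9.72, 9.57 and 9.74 in the monolayers and 11.64, 11.52 and 11.73 in EHT, higher by 1.95 ± 0.15 (adjusted p = 3.19e-06). Secreted antagonists of bone morphogenetic proteins were called in opposite directions. Gremlin (GREM1) stood at 7.95, 8.30 and 7.92 in the monolayers and 10.67, 10.10 and 12.82 in EHT, higher by 3.14 ± 0.62 (adjusted p = 0.00197), and noggin (NOG) was lower, with a difference of -2.96 ± 0.43 (adjusted p = 0.000255). The activin antagonists differed likewise, with FSTL3 higher, at 1.23, and FST lower, at -1.53. The inhibitory SMAD7 was higher by 0.78 and SMAD6 lower by -1.48.

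Growth factors, peptides and their receptors gave 9 higher and 6 lower of 29 tested, against 18.4% and 19.7% of all genes. On the deposited values 5 were higher and 5 lower. Endothelin 1 (EDN1), a vasoconstrictor peptide, stood at 5.34, 5.42 and 4.41 in the monolayers and 8.46, 7.79 and 8.91 in EHT, higher by 3.33 ± 0.36 (adjusted p = 3.94e-05). Placental growth factor (PGF), a relative of VEGFA, stood at 4.89, 5.75 and 4.86 in the monolayers and 8.12, 9.05 and 7.76 in EHT, higher by 3.14 ± 0.46 (adjusted p = 0.000267). The lymphatic factor VEGFC and the fibroblast growth factor FGF2 were higher by 2.25 and 1.80. KDR, the receptor that VEGFA signals through, was lower, with a difference of -3.84 ± 0.76 (adjusted p = 0.00187), and -2.53 without EHT replicate 3. PDGFB, a ligand that recruits pericytes, was lower, with a difference of -2.81. The atrial peptide NPPA could not be called, at -1.55 ± 1.80 (adjusted p = 0.525), since it stood at 10.71, 11.45 and 2.65 in EHT against 9.61, 9.99 and 9.86 in the monolayers, and its difference was 1.26 without EHT replicate 3.

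Cell cycle genes were lower in part. Of 33 tested, 3 were higher and 10 lower, against 18.4% and 19.7% of all genes. The counts were 3 and 8 without EHT replicate 3, and 1 was higher without EHT replicate 2. On the deposited values 1 was higher and 7 were lower. CENPF, a kinetochore protein of dividing cells, stood at 9.34, 9.11 and 9.20 in the monolayers and 7.99, 7.49 and 5.75 in EHT, a difference of -2.14 ± 0.43 (adjusted p = 0.00201). RRM2, a subunit of the enzyme that makes deoxynucleotides, stood at 7.67, 7.80 and 7.28 in the monolayers and 9.48, 9.68 and 8.91 in EHT, higher by 1.77 ± 0.25 (adjusted p = 0.000211). Among targets of the tumour suppressor p53, 4 were higher and 8 lower of 23 tested, against 18.4% and 19.7% of all genes. On the deposited values 1 was higher and 2 were lower. MDM2, the ligase that degrades p53, stood at 10.26, 10.44 and 10.43 in the monolayers and 9.13, 9.39 and 9.11 in EHT, a difference of -1.17 ± 0.19 (adjusted p = 0.000542). PPM1D and ZMAT3, both induced by p53, were lower, with differences of -1.55 and -1.84, whereas the death receptor FAS was higher by 1.45. In cholesterol synthesis, 4 were higher and 2 lower of 21 tested, against the same shares of all genes. These counts were 2 higher without EHT replicate 3 or monolayer replicate 2 or 3. They were 5 lower without EHT replicate 3, and 0 lower without EHT replicate 2 or any 1 monolayer replicate. On the deposited values 1 was higher and 0 were lower. The sterol oxidase MSMO1 was higher by 1.52.

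Markers of cell types other than cardiomyocytes showed no single shift. Of 9 fibroblast markers tested, 4 were higher and 1 was lower, against 18.4% and 19.7% of all genes. The lower ones numbered 2 without monolayer normoxia replicate 1. S100A4, a calcium-binding protein of motile stromal cells, stood at 7.20, 7.17 and 7.02 in the monolayers and 10.67, 10.58 and 10.40 in EHT, higher by 3.42 ± 0.16 (adjusted p = 2.41e-07). PDGFRB, the receptor of stromal cells and pericytes, was higher by 1.48 ± 0.19 (adjusted p = 0.000103). THY1, a surface glycoprotein of fibroblasts, was lower, with a difference of -1.95 ± 0.32 (adjusted p = 0.000632). Of 8 smooth muscle or pericyte markers 6 were lower, among them RGS5 of pericytes, at -1.51. Endothelial markers gave 2 higher and 1 lower of 6, with 1 higher without EHT replicate 2 or monolayer replicate 3. Epicardial or mesothelial markers gave 1 and 1 of 6, with 3 lower without EHT replicate 2 and 2 lower without EHT normoxia replicate 3. Epithelial markers gave 0 and 3 of 8, with 1 lower without EHT replicate 1 or 2 or monolayer replicate 1, and neural markers 1 and 2 of 4. Mesothelin (MSLN), a surface protein of mesothelium, was higher by 2.49, and ALDH1A2, the retinoic acid enzyme of epicardium, was lower, with a difference of -3.41. The keratin KRT18 was lower, with a difference of -2.85, and so was the neurofilament NEFL, at -3.09.

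Outside the lists, the largest difference in either direction among the genes named by rule was in CRABP1, a retinoic acid carrier, which stood at 14.15, 14.32 and 13.89 in the monolayers and 7.98, 7.70 and 3.45 in EHT. It was lower, with a difference of -7.75 ± 0.97 (adjusted p = 9.7e-05), and -6.29 without EHT replicate 3. EEF1A2, the elongation factor of muscle and neurons, stood at 11.64, 11.63 and 11.61 in the monolayers and 6.67, 7.27 and 6.93 in EHT, a difference of -4.67 ± 0.36 (adjusted p = 3.19e-06). DUSP6, a phosphatase that dampens ERK signalling and is induced by it, stood at 7.28, 7.56 and 7.30 in the monolayers and 12.01, 11.76 and 10.74 in EHT, higher by 4.12 ± 0.31 (adjusted p = 3.19e-06). The prostaglandin synthase PTGS1 stood at 6.60, 6.28 and 6.33 in the monolayers and 10.84, 9.95 and 10.93 in EHT, higher by 4.17 ± 0.44 (adjusted p = 2.97e-05). CLEC2B, a lectin ligand of natural killer cell receptors, and KCNN4, a calcium-activated potassium channel, were higher by 5.0 and 3.99. The matrix organiser FRAS1 was lower, with a difference of -4.44, and the neural adhesion protein CNTN5 was also lower, at -4.53.

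The same 2 kinds of culture were also compared in normoxia. In normoxia 2750 genes were higher in EHT (22.8%) and 2234 lower (18.5%). On the deposited values 325 were higher and 3099 lower, and on recovered reads scaled by medians of ratios 2320 and 3012. The balance of directions in normoxia thus depended on the scale, and the list counts in normoxia below are on centred values only. Monolayer normoxia replicate 3 had a deposited median of 8.75, against 7.41 and 7.63 in replicates 1 and 2. The normoxia comparison shares no library with the one after hypoxia, but both use 1 estimate of spread per gene over all 12 libraries. Calls in the 2 comparisons are therefore not independent. Of the 4602 genes called after hypoxia, 1907 (41.4%) were called in the same direction in normoxia, which is 38.3% of the 4984 normoxia calls. Another 380 (8.26%) were called in the opposite direction, and 2315 were not called in normoxia. The difference between the differences was tested as an interaction. It was called more positive after hypoxia at 1248 genes (10.3%) and more negative at 1708 (14.1%). On the deposited values the split was 1147 positive and 102 negative, and the median interaction of all genes was 0.62 there against -0.08 after centring, so the balance of directions depended on the scale. Hypoxia and the renewal of medium cannot be told apart in any of these interactions.

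**Figure D4:**
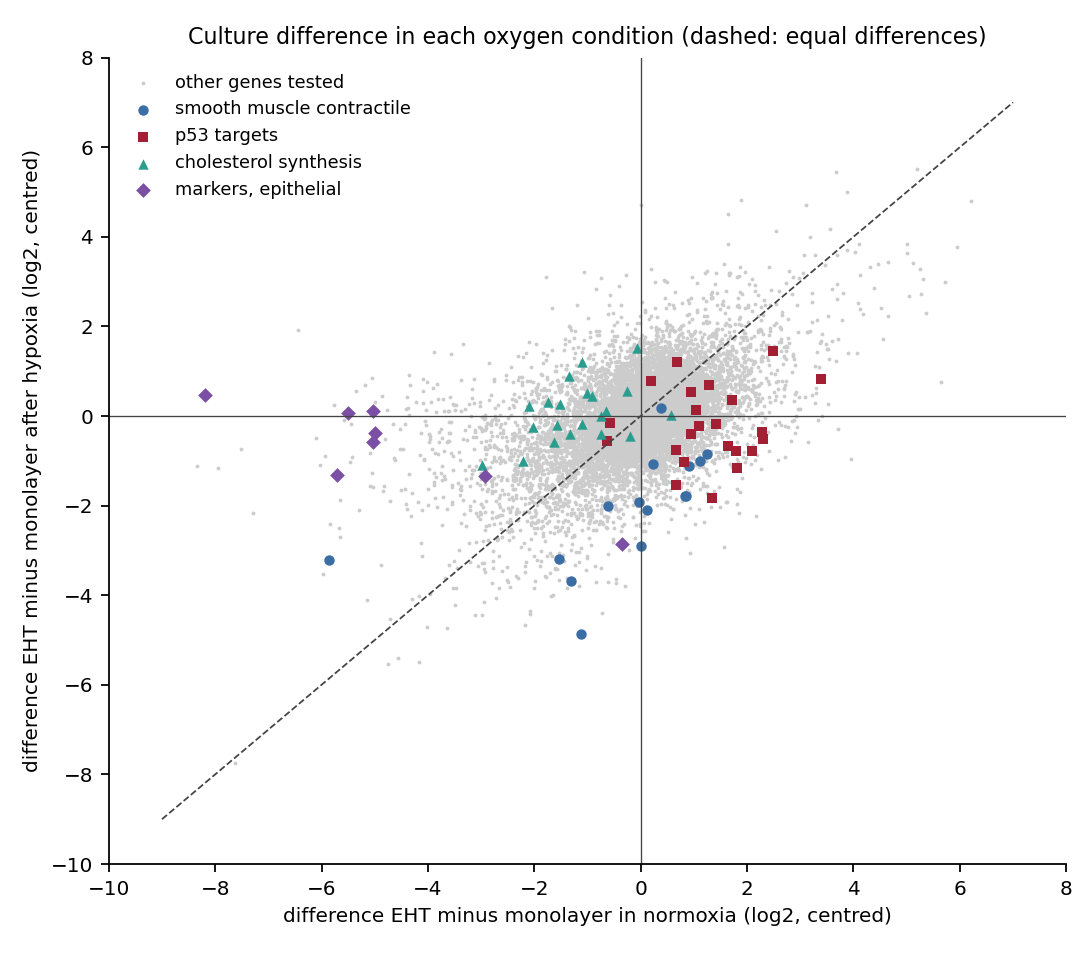
Difference between EHT and monolayer after hypoxia (vertical axis) against the difference in normoxia (horizontal axis) for each tested gene, in centred log2 units, with 4 gene lists in colour and a dashed line where both are equal. The interaction, the distance above or below the line, was called negative at 10 of 15 smooth muscle contractile genes and 15 of 23 p53 targets, and positive at 15 of 21 cholesterol synthesis genes and 6 of 8 epithelial markers, with KRT18 below the line.

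Smooth muscle contractile genes had a lower difference after hypoxia than in normoxia. In normoxia 4 of 15 were higher and 4 lower, against 22.8% and 18.5% of all genes. The interaction was negative for 10 and positive for 0, against 14.1% and 10.3% of all genes. MYH11 stood at 8.40, 8.19 and 6.92 in the monolayers and 8.29, 7.92 and 7.33 in EHT in normoxia, a difference of 0.01, and its interaction was -2.92 ± 0.47 (adjusted p = 0.00104). KCNMB1, the smooth muscle subunit of a large potassium channel, had a difference of 0.93 in normoxia and -3.06 after hypoxia, an interaction of -3.99 ± 0.62 (adjusted p = 0.000846). In the normoxia count, the lower genes numbered 2 without EHT normoxia replicate 3 or monolayer normoxia replicate 2 and 1 without monolayer normoxia replicate 1. The thick and thin filament list had 10 of 17 lower in normoxia and a negative interaction for 2, against 18.5% and 14.1% of all genes. That normoxia count was 6 without EHT normoxia replicate 1, 3 without EHT normoxia replicate 3 or monolayer normoxia replicate 1, and 1 without monolayer normoxia replicate 2. TNNT2 differed by -3.64 in normoxia, and its interaction was not called (-1.09 ± 1.61, adjusted p = 0.67).

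Of the 23 p53 targets, 20 were higher in EHT and 0 lower in normoxia, against the 4 and 8 after hypoxia. The interaction was negative for 15 and positive for 0. MDM2 stood at 8.0, 7.20 and 7.31 in the monolayers and 9.32, 9.44 and 9.15 in EHT in normoxia, higher by 1.80, and its interaction was -2.97 ± 0.27 (adjusted p = 4.32e-05). ZMAT3 had an interaction of -3.17 ± 0.30 (adjusted p = 4.79e-05). FAS was higher in both conditions, by 2.49 in normoxia. The collagen chains COL4A1 and COL4A2, lower after hypoxia, were higher in normoxia, by 1.59 and 0.91, and COL4A1 had an interaction of -3.51 ± 0.50 (adjusted p = 0.000493). Matrix glycoproteins had 15 of 29 higher in normoxia, and 13 had a negative interaction.

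Several lists had the opposite shift, where over all genes 10.3% of interactions were called positive and 14.1% negative. Cholesterol synthesis genes were lower in EHT in normoxia at 17 of 21 genes, and 15 had a positive interaction and 0 a negative one. For MSMO1 the interaction was 1.60 ± 0.45 (adjusted p = 0.0219), not called without EHT normoxia replicate 2 or monolayer hypoxia replicate 1 (adjusted p = 0.0534 and 0.056). Cell cycle genes were lower in normoxia at 28 of 33 and had 8 positive and 2 negative interactions, with 26 positive without EHT hypoxia replicate 3. RRM2 had an interaction of 2.73 ± 0.35 (adjusted p = 0.000303). Immediate early genes had 6 positive and 0 negative interactions. Hypoxia-inducible genes had 8 and 3, with 5 positive without monolayer hypoxia replicate 1 or 3 or monolayer normoxia replicate 2, and 5 negative without EHT hypoxia replicate 3, EHT normoxia replicate 3 or monolayer normoxia replicate 2. NDUFA4L2 differed by 0.01 in normoxia, where it stood at 4.52, 5.75 and 6.20 in the monolayers and 6.07, 6.15 and 4.26 in EHT, and its interaction was 4.71 ± 0.86 (adjusted p = 0.00218). CA9 differed by -3.34 in normoxia, with an interaction of 4.95 ± 0.66 (adjusted p = 0.000365). Among cytokines CCL20 shifted from -0.75 in normoxia to 3.08 after hypoxia (interaction 3.83 ± 0.54, adjusted p = 0.000474), whereas IL6 had an interaction of 1.76 ± 1.07 that was not called (adjusted p = 0.258).

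The largest positive interactions were in genes of squamous and glandular epithelium. KRT5, a keratin of basal epithelium, stood at 14.44, 11.92 and 11.56 in the monolayers and 4.87, 5.10 and 3.36 in EHT in normoxia, and at 5.87, 6.57 and 7.33 and 8.57, 8.80 and 3.77 after hypoxia. Its interaction was 8.66 ± 1.59 (adjusted p = 0.00229). COL17A1, the collagen that anchors basal epithelial cells, had 8.35 ± 1.47 (adjusted p = 0.0018), and the keratins KRT17 and KRT15 had 6.78 and 6.76. These genes were not called after hypoxia with all libraries, and their lowest level among the EHT hypoxia libraries was in replicate 3. Without that library KRT5 and COL17A1 were higher in EHT after hypoxia, by 2.10 and 3.61. Over the 8 epithelial markers tested, 7 were lower in EHT in normoxia, and 6 had a positive and 1 a negative interaction. Toward the negative end were LTBP2, a latent TGF-beta binding protein (-4.87), and DPYSL3, a cytoskeletal protein of growing neurites (-4.01).

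Centring removes any uniform shift of a library, so only differences at particular genes are described here for EHT replicate 3. Against the mean of replicates 1 and 2 its median difference over the thick and thin filament genes was -3.12, with 13 of 17 at least 1 log2 unit below both. Calcium handling genes had 9 of 17 below both and cell cycle genes 18 of 33. Over all 12084 genes tested, 1479 lay at least 1 log2 unit below both and 318 above both. Centring adds to the gaps below at genes with few reads, because it puts 0 reads lowest in replicate 3. Oxidant defence genes had 6 of 14 at least 1 log2 unit above both, and genes of the unfolded protein response 6 of 24. For collagens the median was -0.14 and for smooth muscle contractile genes -0.26, although 4 of 22 collagens and 3 of 15 smooth muscle genes lay at least 1 log2 unit below both and 1 collagen above both. These are descriptions of 1 library, with no test.

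**Figure D5:**
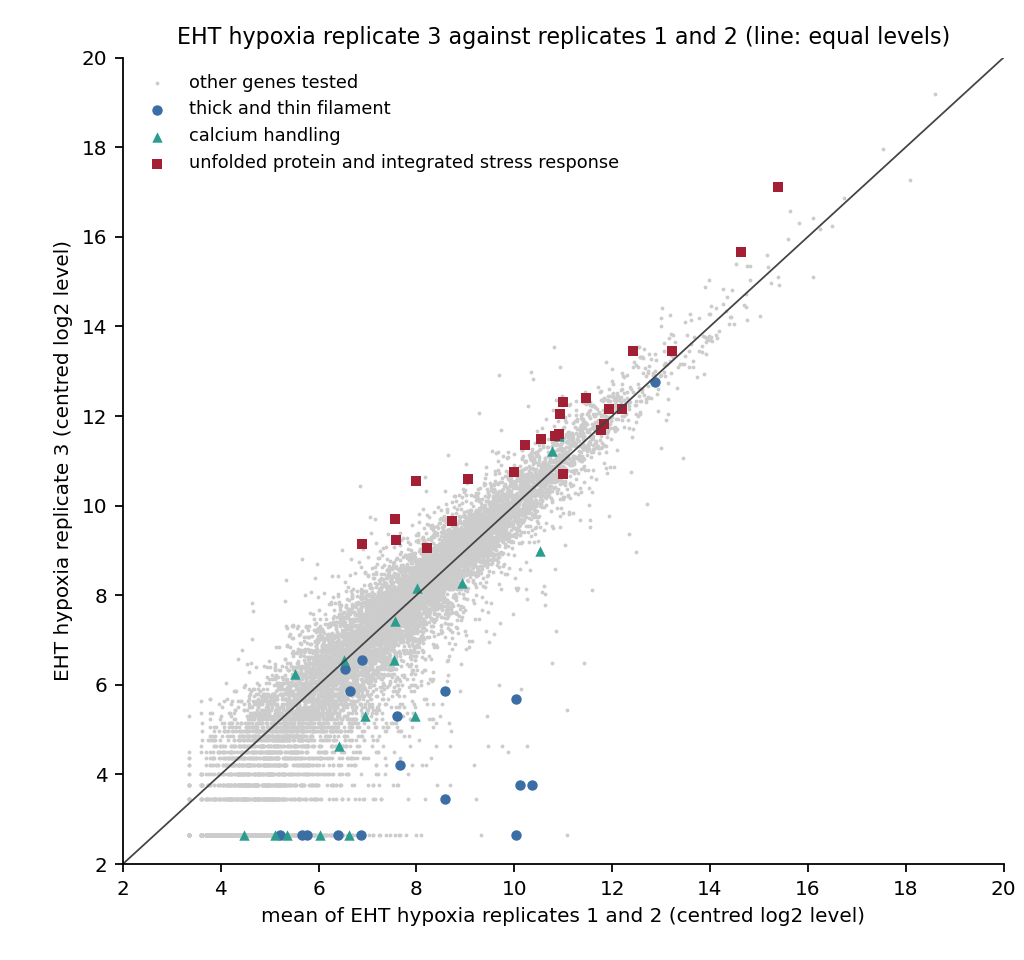
Centred log2 level of each tested gene in EHT hypoxia replicate 3 (vertical axis) against its mean in EHT hypoxia replicates 1 and 2 (horizontal axis), with 3 gene lists in colour and a line of equality. Distances from the line had medians of -3.12 for thick and thin filament genes, -1.53 for calcium handling genes and 0.95 for unfolded protein genes.

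Single genes were as far apart. The chemokine CCL21 stood at 9.86, 10.24 and 2.65 in EHT and 9.27, 9.69 and 8.87 in the monolayers, and the small proteoglycan FMOD at 11.0, 11.18 and 5.45 and 9.67, 10.16 and 9.51. Above the other two were COL7A1, the collagen of anchoring fibrils, at 9.48, 9.88 and 12.91, and the Wnt antagonist SFRP2, at 10.66, 10.96 and 13.55. Both were called with all libraries, at 3.19 and 3.29, and without EHT replicate 3, at 2.11 and 2.37. LYVE1, a hyaluronan receptor of lymphatic vessels and tissue macrophages, had 0 reads in every monolayer hypoxia library and 2, 15 and 108 in EHT. Against a limit of 3 reads over the monolayer group, its mean share of reads was at least 78.2-fold higher in EHT, for counting error only. EHT replicate 3 held most of these reads, and without it the share was at least 11.3-fold higher. The fitted difference of LYVE1 was 2.62 (adjusted p = 0.016), 1.55 without EHT replicate 3, and not called without monolayer replicate 3 (adjusted p = 0.0581).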

How the data were processed

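The authors deposited 1 table of 16745 genes by symbol in 12 libraries, whose values are log2 after the variance-stabilising transformation of DESeq2, scaled per library by the authors' size factors. Per the submitters' processing notes, reads were aligned with HISAT2 and counted with featureCounts. Tool versions, build, annotation and strand setting were not given in the sources used here. Genes therefore carry no positions, and overlapping or near-identical genes may share reads. Per the labels' protocols, libraries came from an Ion Total RNA-Seq kit and were read on the Ion Proton. Inverting the transformation returned whole reads within 0.01 for 100% of values, which gave the read totals and shares of reads.

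A gene was tested if its average across all 12 libraries exceeded the lowest value, 3.00, by 1 log2 unit or more. Values were centred on each library's median, and limma 3.58.1 in R 4.3.3 fitted 1 mean per group over all 12 libraries with a mean-variance trend and Benjamini-Hochberg adjustment. The filter reads the mean of all groups, so a gene high in 1 group can pass through it alone, and counts are over tested members. The transformation flattens low values, so differences of genes with few reads are understated. Listed genes outside the table were not analysed here. The scripts were tested on simulated data with known changes.

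The comparison, the gene lists and the cell type markers were chosen with earlier results of these data known, so their counts are descriptions. Genes were named by rule: in each direction the 12 largest differences among genes called on centred values, on deposited values and without EHT hypoxia replicate 3, with groups that did not overlap and an average 2 log2 units or more above the lowest; per list and direction, up to 4 members of smallest p; every called cell type marker; the 6 largest interactions and the 8 genes with EHT hypoxia replicate 3 farthest from the others, per direction; and a set by name. Some genes are not reported here. The text gives most of the rest, and TNNI3 and TYROBP as markers chosen after their values were seen. Alternatives were scale, filters, variance models, the replicate number as a block and leaving out libraries. Figures were drawn with matplotlib 3.10.9.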

Additional observations from a re-analysis of the deposited data

Results flagged for a closer look

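The difference between EHT and monolayer was itself different after hypoxia and in normoxia at 1248 genes in the positive and 1708 in the negative direction, by limma's interaction term at an adjusted p under 0.05. Each value in parentheses below is an interaction on centred log2 values, the difference after hypoxia less that in normoxia, for a gene named in the text. No explanation was weighed, and hypoxia and the renewal of medium cannot be told apart.

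Among muscle genes, negative interactions were called at ACTG2 (-3.75), KCNMB1 (-3.99), MYH11 (-2.92), MYL9 (-2.63), TAGLN (-2.62), SMTN (-1.39) and TPM1 (-1.89), which are contractile or channel genes of smooth muscle, and at NKX2-5 (-2.87), SLC8A1 (-2.49), CACNA1C (-1.36), SLC25A4 (-1.69) and EEF1A2 (-2.50), which are cardiac or broader muscle genes. Positive ones were called at TCAP (1.70), KCNIP2 (1.45), IRX3 (1.78) and CPT1B (1.24), while N-cadherin CDH2 (-3.55) was negative. The desmosome genes DSP (3.21) and DSG2 (1.35) and the pericyte marker RGS5 (1.93) were lower in EHT in both conditions, and less so after hypoxia.

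In the matrix, negative interactions were called at COL4A1 (-3.51), COL4A2 (-2.29), COL1A1 (-1.62), COL6A1 (-1.08), FN1 (-3.00), TNC (-3.19), VCAN (-2.11), FBLN5 (-2.68), LTBP2 (-4.87) and MMP15 (-1.22) and positive ones at COL17A1 (8.35), COL15A1 (0.64), DCN (2.17), NID2 (0.89) and ADAM8 (2.86). Among hypoxia and sugar metabolism genes they were positive at CA9 (4.95), NDUFA4L2 (4.71), C10orf10 (2.93), EGLN3 (2.82), ENO2 (3.02) and SLC2A1 (1.64) and negative at PFKM (-1.25) and HK1 (-1.31). The respiratory chain genes NDUFA4 (-1.28), COX5A (-1.30), NDUFA8 (-0.75) and ATP5A1 (-0.52) were negative.

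Signalling and stress genes were positive at CCL20 (3.83), PGF (3.42), DUSP6 (1.58), KLF6 (1.41), ISG20 (1.76), MT1X (2.01) and MX1 (0.78) and negative at CSF1 (-1.15) and PDGFB (-2.29). The p53 targets ZMAT3 (-3.17), MDM2 (-2.97), PPM1D (-2.21) and FAS (-1.04) were negative, and RRM2 (2.73) and MSMO1 (1.60), of nucleotide and cholesterol metabolism, were positive. Among epithelial, mesothelial, stromal and neural genes they were positive at KRT5 (8.66), KRT17 (6.78), KRT15 (6.76) and MSLN (3.68) and negative at KRT18 (-2.50), THY1 (-1.94), S100A4 (-1.70), DPYSL3 (-4.01) and NEFL (-2.47).

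The interactions at ATP5A1, COL15A1, COL1A1, COL6A1, CPT1B, DUSP6, ISG20, KCNIP2, MMP15, MSMO1, MX1, NID2, NKX2-5 and SLC8A1 were each lost in at least 1 of the fits that left out 1 library, with adjusted p of 0.0507 to 0.116 where lost. Those of NKX2-5 were lost without EHT normoxia replicate 3 or monolayer hypoxia replicate 1 or 2, and those of SLC8A1 without EHT normoxia replicate 1 or 2 or monolayer hypoxia replicate 3.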

How the results depend on the processing

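The counts after hypoxia stayed within 1.5 times of 2227 higher and 2375 lower under every alternative run except those on the deposited values, which gave 607 and 946, or 418 and 922 with EHT hypoxia replicate 3 left out as well. That second alternative was chosen after seeing the data. Recovered reads tested with limma's voom gave 1859 higher and 2386 lower, and the hypoxia libraries alone, without EHT hypoxia replicate 3, gave 2905 and 2925. Leaving out each library in turn gave 1660 to 2253 higher and 1721 to 2430 lower, and the interaction gave 879 to 1838 positive and 1217 to 2238 negative. Array quality weights raised the interaction to 2114 positive and 2639 negative, and the deposited values lowered the negative ones to 102, or 163 without EHT hypoxia replicate 3. The causes were not tested.

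With the hypoxia libraries alone and EHT hypoxia replicate 3 left out, 3 uncalled differences turned sign, NPPA to 1.26, CCL21 to 0.77 and FMOD to 1.31. In that fit 11 hypoxia-inducible genes were lower in EHT, and 7 in the 6 hypoxia libraries alone, against 4 in the reported fit. Of 203 named genes called after hypoxia, 69 lost the call on the deposited values and 0 reversed.

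The labels number replicates 1 to 3 in each group. Deviations of monolayer and EHT hypoxia libraries of the same number correlated at 0.05, 0.05 and 0.14, and not every library correlated best with its own number. Such correlations cannot decide whether equal numbers share an origin, because the deviations of 3 libraries from their own mean depend on each other. Between EHT normoxia and EHT hypoxia the same numbers gave 0.036, 0.328 and 0.275 and different numbers -0.321 to 0.185. A replicate block gave 2212 higher and 2379 lower, and 1212 positive and 1675 negative interactions. Read depth limits the genes near 0 reads. Among the hypoxia libraries EHT hypoxia replicate 3 was the shallowest, with 4418409 reads. EHT normoxia replicate 1, which enters the normoxia comparison and the interactions, was shallower still, with 4154346 reads.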

Other observations

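Several of the genes at which EHT hypoxia replicate 3 stood apart also stood apart in EHT normoxia replicate 3, and others did so by less. In the 3 EHT normoxia libraries, in order, the atrial peptide NPPA stood at 7.34, 6.27 and 3.36, the chemokine CCL21 at 7.19, 6.25 and 3.93, and the myosin gene MYH6 at 8.25, 6.96 and 3.76, each lowest in replicate 3. The secreted ribonuclease RNASE1 stood at 8.23, 6.75 and 3.36 in normoxia and 8.59, 10.03 and 2.65 after hypoxia, and the microfibril protein MFAP5 at 6.18, 5.52 and 3.36 and 9.21, 9.24 and 3.45. On the high side, COL7A1 stood at 10.55, 10.38 and 13.39 in normoxia and the collagenase MMP13 at 10.90, 10.84 and 12.83 in normoxia and 9.23, 9.35 and 12.07 after hypoxia, each highest in replicate 3. The irritant channel TRPA1 stood at 7.29, 7.51 and 9.96 and 4.94, 5.72 and 8.33. The Wnt antagonist SFRP2 stood at 12.98, 12.79 and 13.90 in normoxia, where replicate 3 lay less than 1 log2 unit above replicate 1. Interleukin 6 did not follow, since IL6 was lowest in EHT normoxia replicate 3 (9.39, 9.20 and 6.77) and highest in EHT hypoxia replicate 3 (9.53, 9.81 and 11.19). The labels do not say whether libraries with the same number share an origin. These genes were chosen for their values in EHT hypoxia replicate 3 or by name, and no test was made.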
